A study of Caenorhabditis elegans with 6 samples.

Results

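The F-box B (fbxb) and F-box C (fbxc) genes of Caenorhabditis elegans are large families of worm genes named for the F-box, and small RNAs at these genes were followed through germline Argonaute and P granule mutants. The members were all loci listed under a symbol made of fbxb or fbxc and a number, which gave 160 of 42402 loci, 109 F-box B and 51 F-box C. In the reference annotation (WBcel235) 9 members were pseudogenes. Members often lie side by side: 85 of the 160 stood in 26 runs of neighbouring members, the longest holding 10.

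F-box proteins are the adaptor subunits of SCF ubiquitin ligases: the F-box binds a Skp1-related protein on the cullin, and the rest of the protein picks the substrate that is to be ubiquitinated. In C. elegans the family is greatly expanded, and for most fbxb and fbxc genes no individual substrate or role is known. Secondary small interfering RNAs (siRNAs) are made by RNA-dependent RNA polymerases on target transcripts and are loaded into worm-specific Argonautes. HRDE-1 is the germline Argonaute that carries such siRNAs into the nucleus. MEG-3 together with MEG-4 builds the protein scaffold around P granules, condensates of RNA and protein in germ cells.

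The 6 libraries came from whole worms at the young mother stage, which had been synchronised by starvation and raised at 20 °C with HT115 (L4440) bacteria as food, and each strain had 2 libraries. The strains were hrde-1(tm1200), the double mutant JH3745 outcrossed, which carries meg-3(ax3055) and meg-4(ax3052), and the triple mutant with all of these alleles. The plots name the double mutant meg-3 meg-4. Only this strain is labelled outcrossed, so strain history cannot be told apart from genotype in comparisons with it. The wild type N2 enters only through the fold changes and adjusted p-values of the authors' deposited tables, so N2 levels are not given here. Per the labels, RNA was treated with a 5′ polyphosphatase, which lets secondary siRNAs with a 5′ triphosphate enter the library.

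Between 2384147 and 6780320 reads were recovered per library. At meg-3 the counts were 52 and 22 for hrde-1, 2 and 3 for the double mutant, and 0 and 0 for the triple mutant. Those at meg-4 numbered 48 and 39 in hrde-1, and 0 in the other 4 libraries, which allows up to 3 reads each by counting error alone. At hrde-1 itself, reads were present in every library (633 to 4138), and whether they fall on the deleted stretch is not shown by a sum over the gene. The share of reads at microRNA (miRNA) loci was 18.2% and 19.5% in the hrde-1 strain and 28.6% to 32.1% in the other strains. Of the double mutant libraries, replicate 2 stood apart: reads at the 6 listed vitellogenin genes summed to 3145 RPM (reads relative to the size of the library) against 288 in replicate 1 and 49.0 to 123 in the other strains, and those at 13 muscle genes to 234 RPM against 26.0 to 66.8. In whole worms, fewer cells of a type and less small RNA per cell cannot be told apart. The labels do not say that the libraries of a strain came from separate cultures, so p-values measure only the spread between these libraries, which may be technical.

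Small RNA reads at the families were concentrated on few members, and 1 gene, fbxb-14, held most of them wherever hrde-1 was mutated. Of the 160 members, 32 had a mean of at least 10 RPM over the 6 libraries (20 F-box B and 12 F-box C), 58 had 1 to 10 RPM, 53 had reads but less than 1 RPM, and 17 had 0 reads in every library. Among the 17 without reads were 13 F-box C and 4 F-box B genes, and 1 was a pseudogene. The longest run of neighbours, which held fbxc-1 to fbxc-5 and fbxc-8 to fbxc-12, had 1 read in all 6 libraries together, and 9 of its 10 members had none. These 9 are among the 13 F-box C genes without reads. In this run fbxc-1 to fbxc-5 share an exon length of 1.128 kb, and fbxc-8 to fbxc-12 one of 1.413 kb. How reads with several positions were counted is not given, so a count of 0 here need not mean that small RNAs were absent. Per kilobase of exon the median level was 1.35 RPM per kb in F-box B and 0.833 in F-box C.

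The families together took 0.812% and 1.00% of all reads in the hrde-1 strain, 0.852% and 1.02% in triple mutants, and 0.521% and 0.652% in the double mutant. Of these reads, fbxb-14 took 56.1% and 61.0% in the hrde-1 strain, 64.3% and 68.4% in triple mutants, and 32.7% and 29.9% in the double mutant. Its share was thus lowest in both libraries of the strain with intact hrde-1. Levels of members in RPM are after TMM scaling of the 6 libraries together, unless library totals are named. The summed level of all members was 7945 ± 2146 RPM in the hrde-1 strain, 10911 ± 673 in triple mutants and 5827 ± 1237 in the double mutant (SD, n = 2 each). With fbxb-14 left out, a choice made after its values were seen, the sums were 3257 ± 618, 3658 ± 91.2 and 4016 ± 964 RPM (SD, n = 2 each), and the order of the strains changed. The order also depended on the scaling. By library totals without fbxb-14, the hrde-1 strain (3564 and 3906 RPM) stood above triple mutants (3038 and 3215). The double mutant had 3510 and 4573 RPM by library totals. These sums were not tested.

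fbxb-14 was the highest member per kilobase of exon, at 7174 RPM per kb. It was followed by fbxc-43 (1156), fbxb-97 (491), fbxb-100 (272), fbxb-85 (207), fbxb-24 (189), fbxb-37 (93.3), fbxc-44 (81.4), fbxc-39 (60.2) and fbxb-91 (57.3 RPM per kb), all as means over the 6 libraries. Only 7 members reached a mean of 100 RPM. The reads at fbxb-14 numbered 24842 and 28082 in the hrde-1 strain, 37145 and 16627 in triple mutants, and 9592 and 9983 in the double mutant. In the double mutant fbxc-43 followed closely, with 7425 and 7530 reads.

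**Figure D1:**
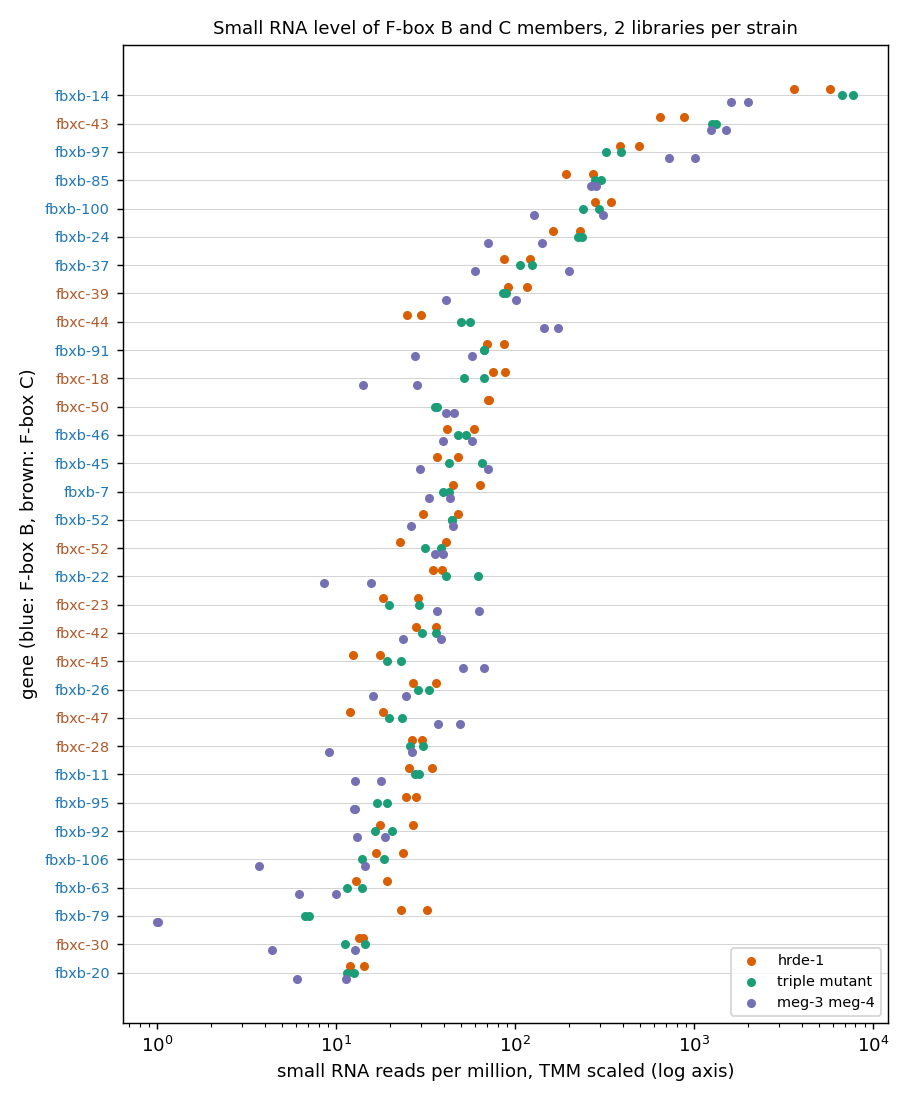
Small RNA level (RPM after TMM scaling, log axis) of the 32 members with a mean of at least 10 RPM, with 1 point per library for hrde-1, the triple mutant and the double mutant. fbxb-14 leads in every library, the double mutant points lie below the others at fbxb-14, fbxb-22, fbxc-18 and fbxb-79, and they lie above the others at fbxb-97, fbxc-44, fbxc-45 and fbxc-47.

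Among the other members with the most reads, fbxc-43 stood at 644 and 886 RPM in the hrde-1 strain, 1323 and 1262 RPM in the triple mutant, and 1253 and 1512 RPM in the double mutant. Both hrde-1 libraries were thus below the other 4, while the triple mutant and the double mutant overlapped. fbxb-85 had 193 and 274 RPM in the hrde-1 strain, 302 and 281 in triple mutants, and 265 and 283 in the double mutant. For fbxb-85 both hrde-1 libraries were below both of the triple mutant, and the double mutant overlapped with each.

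At 3 of the 10 members with the highest mean RPM the libraries of the double mutant differed from each other more than the strains did. fbxb-37 had 59.9 and 201 RPM in the double mutant against 87.1 and 121 in the hrde-1 strain and 125 and 107 in the triple mutant. fbxb-100 had 128 and 311 RPM in the double mutant against 279 and 343 in the hrde-1 strain and 241 and 295 in the triple mutant. fbxc-39 had 41.0 and 102 RPM in the double mutant against 91.9 and 117 in the hrde-1 strain and 89.6 and 85.3 in the triple mutant. In these 3 genes, replicate 2 was the higher double mutant library and replicate 1 lay below all libraries of the other strains. fbxb-91 showed the same within the double mutant, with 27.5 and 57.4 RPM, but both of these lay below hrde-1 (69.5 and 86.7) and the triple mutant (67.2 and 67.5). fbxb-24 had 70.7 and 142 RPM in the double mutant and lay between 164 and 236 RPM in the other 4 libraries, without overlap.

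In the comparison of hrde-1 with N2 in the authors' deposited table, members were mostly lower in the mutant. It gives an adjusted p to 97 members, of which 2 were called higher and 19 lower at an adjusted p under 0.05. That is 21.6% of these members, against 15.9% of the 13876 loci with an adjusted p. By direction, 2.06% of the members were higher and 19.6% lower, against 8.75% and 7.19% of all loci, and the members' median log2 fold change in the authors' deposited table was -0.52 against 0.07 for all loci. The members called higher were fbxb-79, with a log2 fold change of 3.12 (adjusted p = 8.6e-11), and fbxb-14, with 1.71 (adjusted p = 1.2e-08), both from the authors' deposited table.

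Of the 19 lower members 14 were F-box B, out of 71 with an adjusted p, and 5 were F-box C, out of 26. The log2 fold changes lowest in the authors' deposited table were those of fbxb-101 (-3.06), fbxb-56 (-2.54), fbxb-98 (-1.94), fbxb-25 (-1.82) and fbxb-53 (-1.81). These 5 genes had few reads, with 7 to 33 per hrde-1 library. Among well covered members, the authors' deposited table lists fbxc-44 at -1.72 (adjusted p = 2.3e-07), fbxb-97 at -1.63 (adjusted p = 4.7e-09) and fbxb-95 at -1.57 (adjusted p = 7.7e-06). fbxc-43, the member with the second highest level, was not called in the authors' deposited table (log2 fold change -0.38, adjusted p = 0.39).

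**Figure D2:**
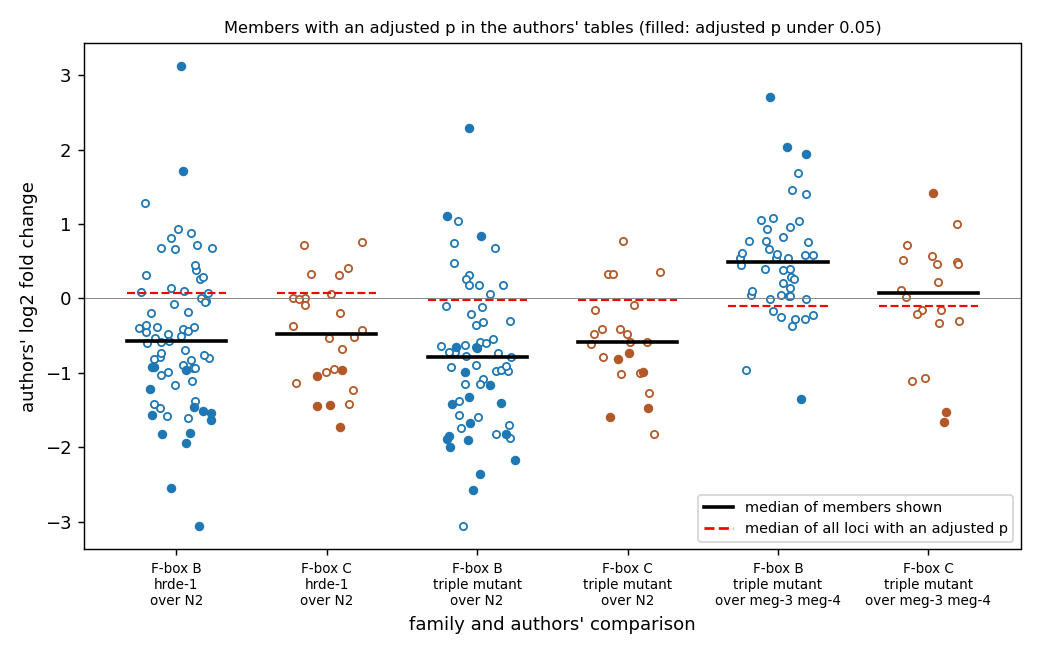
Authors' log2 fold change of each member with an adjusted p, by family and comparison, with filled points for an adjusted p under 0.05, a black line at the median of the members shown and a dashed line at the median of all loci with an adjusted p. The medians of both families lie below those of all loci in hrde-1 over N2 and in the triple mutant over N2, and above them in the triple over the double mutant.

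The triple over the double mutant sets the loss of hrde-1 in a strain that already lacks meg-3 and meg-4. Of these strains only the double mutant is labelled outcrossed. fbxb-14, fbxb-22 and fbxc-18 were higher in the triple mutant, and fbxb-97, fbxc-44 and fbxc-45 lower. limma was fitted to log2(value + 1) of the deposited scaled values where a locus averaged at least 10, which 28 members passed (17 F-box B and 11 F-box C), and calls were made at an adjusted p under 0.05. The 6 calls were 21.4% of the members tested, against 7.75% of all 6067 loci tested (4.3% higher and 3.44% lower), and 10 members had an unadjusted p under 0.05 (15.2% of all loci did). The strains did not overlap at 14 of the 28 (50%), against 43.5% of all loci tested. The other 132 members were not tested, so these shares describe the covered members only.

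fbxb-14 had scaled values of 6053 and 7045 in triple mutants and 1489 and 1934 in the double mutant. Both triple mutant libraries were above both of the double mutant, with a log2 fold change of 1.94 ± 0.26 (SE, n = 2 each; limma adjusted p = 1.1e-04). fbxb-14 was called under each of the 16 alternatives run, with log2 fold changes from 1.76 to 2.13. fbxb-22 had 55.9 and 37.3 in triple mutants and 7.92 and 15.1 in the double mutant, again without overlap. Its log2 fold change was 1.96 ± 0.37 (SE, n = 2 each; limma adjusted p = 0.0026), and the call was lost without triple mutant replicate 1 (adjusted p = 0.108).

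fbxc-18 had 60.5 and 47.0 in triple mutants and 13.04 and 27.5 in the double mutant. The groups did not overlap, and the log2 fold change was 1.44 ± 0.38 (SE, n = 2 each; limma adjusted p = 0.026). This call was lost with scaling to library totals (limma adjusted p = 0.111) or to miRNA reads (0.0796), and without triple mutant replicate 1 (0.431), triple mutant replicate 2 (0.15) or double mutant replicate 1 (0.0576).

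On the lower side, fbxc-44 had scaled values of 50.8 and 44.9 in triple mutants and 134 and 169 in the double mutant. Its log2 fold change was -1.63 ± 0.34 (SE, n = 2 each; limma adjusted p = 0.0060), with no overlap of the strains. fbxc-45 had 20.9 and 17.4 against 46.9 and 64.5, with a log2 fold change of -1.48 ± 0.33 (SE, n = 2 each; limma adjusted p = 0.0096). For fbxc-45 too, both triple mutant libraries lay under both of the double mutant. fbxb-97 had 352 and 292 against 671 and 979, and a log2 fold change of -1.34 ± 0.34 (SE, n = 2 each; limma adjusted p = 0.020). The fbxb-97 groups did not overlap either. Without triple mutant replicate 1 or without replicate 2, the limma calls of fbxc-44, fbxc-45 and fbxb-97 were lost, with adjusted p between 0.185 and 0.564.

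The number of members called rested on single libraries. It was 1 without triple mutant replicate 1, 2 without triple mutant replicate 2, 8 without double mutant replicate 1, and 14 (11 higher, 3 lower) without double mutant replicate 2, the library with the high vitellogenin level. The share of all loci called moved with the same libraries, at 3.76%, 3.4%, 11.7% and 14.7% in that order. The 8 members added in the last case were fbxb-100 (log2 fold change 1.02), fbxb-106 (1.82), fbxb-11 (1.06), fbxb-24 (1.66), fbxb-37 (0.91), fbxb-91 (1.23), fbxc-28 (1.49) and fbxc-39 (1.05). With double mutant replicate 1 left out in its place, fbxb-37 was called lower, at -0.89. The part of the vitellogenin and muscle small RNAs of replicate 2 in these values was not tested.

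**Figure D3:**
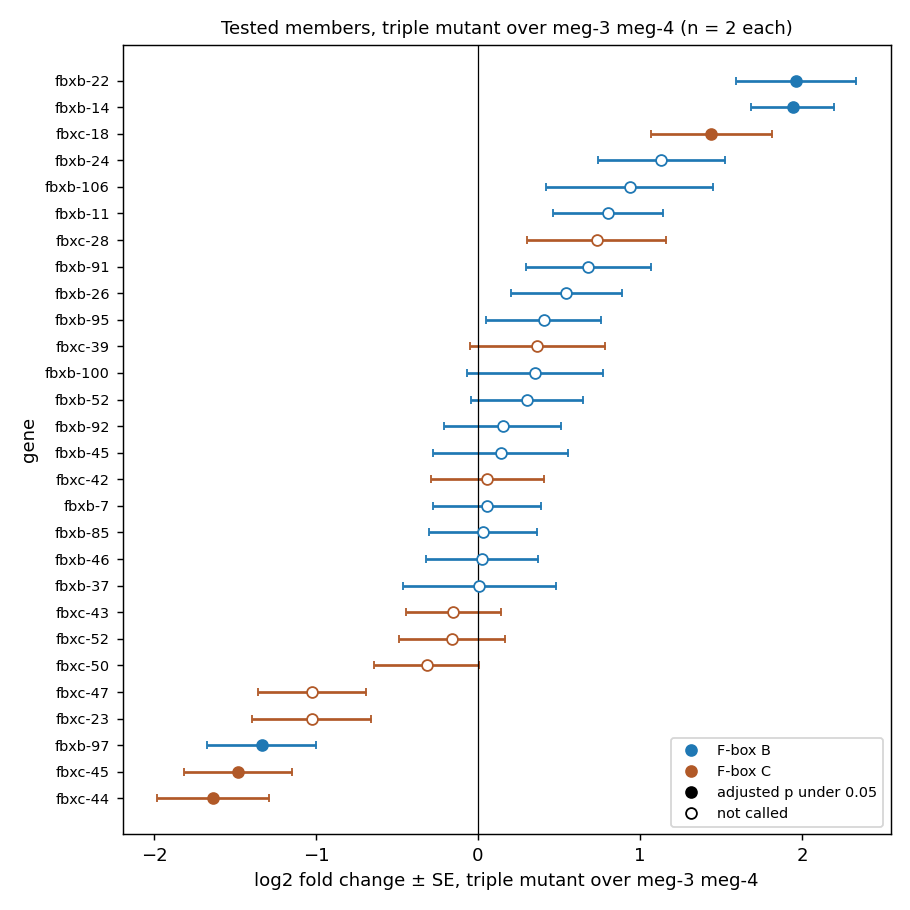
log2 fold change ± SE of the 28 tested members, triple over the double mutant, fitted with limma to the deposited scaled values of 2 libraries per strain; filled points have an adjusted p under 0.05. The 3 members called higher lie between 1.44 and 1.96, the 3 called lower between -1.63 and -1.34, and the other 22 in between.

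Of the 17 tested F-box B members 16 had a log2 fold change above 0, and of the 11 F-box C members 4 did, with medians of 0.35 and -0.16 against -0.11 for all loci. Of all 6067 loci 2425 were above 0. The signs of small changes depended on the scaling and on single libraries. With library totals 10 of 17 and 3 of 11 were above 0, with medians of 0.17 and -0.34 against -0.29 for all loci. Without double mutant replicate 1, 10 of 19 F-box B and 1 of 12 F-box C members were above 0, against 2973 of 5971 loci. Without double mutant replicate 2, 15 of 17 and 5 of 11 were, against 2462 of 5990 loci. The families were not tested against each other.

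The loss of hrde-1 can be set side by side in the 2 backgrounds, since hrde-1 over N2 and the triple over the double mutant share no library. In the latter comparison the outcrossed label goes together with intact hrde-1. An adjusted p in both of the authors' deposited tables was given to 66 members. The authors' deposited table of the triple over the double mutant calls 4 of them higher (6.06%, against 2.39% of 11871 loci) and 3 lower (4.55%, against 1.94%), 10.6% in all against 4.33%. fbxb-14 (log2 fold changes of 1.71 and 1.94) and fbxb-79 (3.12 and 2.70) were called higher in both, which is 100% of the members called higher in hrde-1 over N2 and 50% of those called higher in the triple mutant in the authors' deposited tables. fbxb-97 (-1.63 and -1.36), fbxc-44 (-1.72 and -1.66) and fbxc-45 (-1.04 and -1.53) were called lower in both of the authors' deposited tables. They are 17.6% of the 17 members lower in hrde-1 over N2 and 100% of the 3 lower in the triple mutant. As shares of the 66 members, 3.03% were called higher in both and 4.55% lower in both of the authors' deposited tables, against 1.87% and 1.26% of all 11674 loci with both adjusted p-values. No member was called in opposite directions. In the authors' deposited tables fbxb-79 over the double mutant (adjusted p = 0.037) and fbxc-45 in hrde-1 over N2 (adjusted p = 0.029) are not under 0.01.

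fbxb-22 and fbxc-18 were called higher over the double mutant (2.03 and 1.42) but not over N2 (0.68, adjusted p = 0.17, and 0.41, adjusted p = 0.40) in the authors' deposited tables, and whether the backgrounds differ was not tested. For 14 of the 17 members lower in hrde-1 over N2 there was no call over the double mutant. Among all loci, 998 of 13876 were called lower in hrde-1 over N2 and 147 of 11674 lower in both. Called higher were 1214 and 218 in the same order. A missing call over the double mutant was thus common among all loci too. fbxb-79 was under the mean of 10 needed for the fit of the triple over the double mutant, at 6.03 and 6.36 against 0.932 and 0.968. With a minimum mean of 1 it was called, at a log2 fold change of 1.88.

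**Figure D4:**
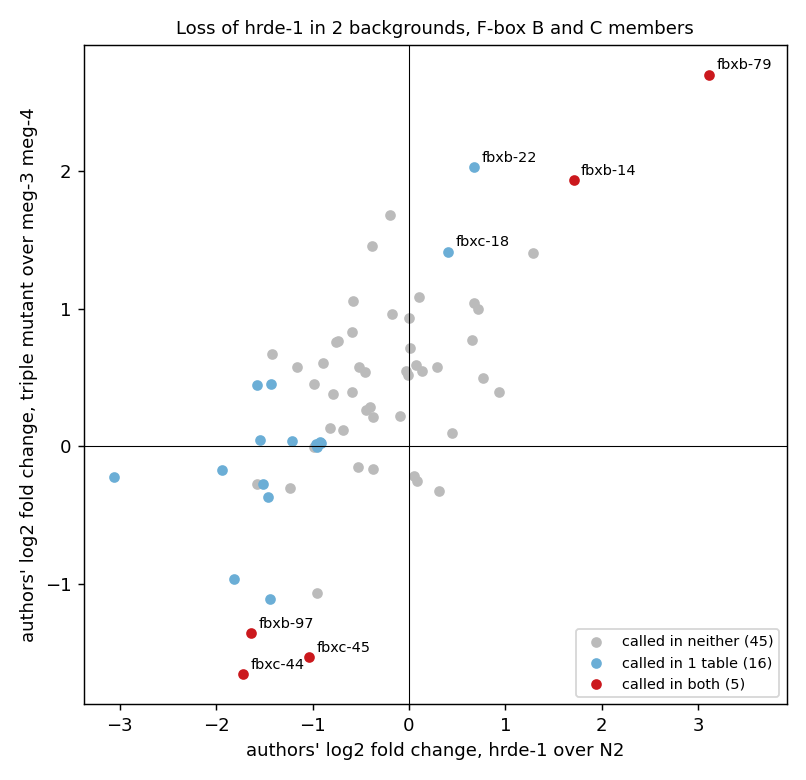
Authors' log2 fold change of the triple over the double mutant (vertical) against that of hrde-1 over N2 (horizontal) for the 66 members with an adjusted p in both tables, coloured by the number of tables in which the adjusted p is under 0.05. fbxb-79 and fbxb-14 stand at the upper right and fbxb-97, fbxc-44 and fbxc-45 at the lower left, called in both.

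The authors' deposited table for triple mutant against N2 may share N2 libraries with that of hrde-1 over N2, which was not checked. Its values are given beside those of hrde-1 over N2 and not as separate evidence. Of 86 members with an adjusted p it calls 3 higher and 21 lower, 27.9% against 18.8% of 12595 loci (higher 3.49% against 8.77%, lower 24.4% against 10%), with a median log2 fold change of -0.73 against -0.02 for all loci. fbxb-14 (log2 fold change 2.29, adjusted p = 1.5e-41), fbxb-22 (1.11, adjusted p = 0.0019) and fbxb-24 (0.84, adjusted p = 1.0e-04) were the higher members in the authors' deposited table. fbxb-79, at 3.12 in hrde-1 over N2, stood at 1.05 in the triple mutant and was not called (adjusted p = 0.30) in the authors' deposited table.

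Members called lower over N2 did not all stand below 0 in the triple over the double mutant. fbxb-95 was at -1.57 in hrde-1 over N2, -2.17 in the triple mutant over N2 and 0.45 in the triple over the double mutant in the authors' deposited tables. fbxb-7 stood at -1.22, -1.67 and 0.04, and fbxb-98 at -1.94, -2.36 and -0.17, in the same order in the authors' deposited tables. fbxb-15 (-1.90), fbxb-53 (-1.89), fbxb-101 (-1.85) and fbxb-93 (-1.82) were also called lower in the triple mutant over N2 in the authors' deposited table.

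A value for the double mutant over N2 exists only as the difference between the authors' deposited tables, which were scaled separately, and has no test. It is built from the triple mutant over N2 and the triple over the double mutant, so it is no separate evidence beside them. By this difference 58 of the 66 members with an adjusted p in both tables (87.9%) were below 0 in the double mutant, against 46.1% of 11663 loci, with medians of -0.96 and 0.07. fbxb-95 came to -2.61, fbxb-98 to -2.18, fbxb-7 to -1.71 and fbxb-97 to -0.64 by the same difference of the authors' deposited tables. fbxb-14 came to 0.35, fbxc-44 to 0.84, fbxc-45 to 0.95 and fbxb-79 to -1.66.

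The triple mutant over hrde-1 sets the loss of meg-3 and meg-4 in a strain that already lacks hrde-1, and 1 member differed. No deposited table holds both strains, so the reads of all 6 libraries were scaled together to RPM and fitted in 1 limma model, which 32 members entered. fbxb-79 had 23.1 and 32.5 RPM in the hrde-1 strain, 6.69 and 7.03 in triple mutants, and 1.01 and 1.00 in the double mutant. The libraries of the 3 strains did not overlap, with hrde-1 the highest and the double mutant the lowest. The log2 fold change of fbxb-79 in the triple mutant over hrde-1 was -1.85 ± 0.42 (SE, n = 2 each; limma adjusted p = 0.011). It reached the mean of 10 RPM needed for the fit through the hrde-1 libraries alone, both other strains being under 10, so the filter favoured a difference here. With a minimum mean of 1, which it passed in each strain, the limma adjusted p was 0.0040.

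This 1 call among 32 members (3.12%) compares with 10.3% of all 6469 loci tested (4.37% higher and 5.91% lower), and whether these shares differ was not tested. fbxb-14 was at 3607 and 5768 RPM in the hrde-1 strain and 6713 and 7794 in the triple mutant, without overlap, but its log2 fold change of 0.67 ± 0.30 was not called (SE, n = 2 each; limma adjusted p = 0.25). fbxc-44 was at 24.8 and 29.8 RPM in the hrde-1 strain and 56.4 and 49.7 in the triple mutant, also apart and also not called (log2 fold change 0.94 ± 0.32, SE, n = 2 each; limma adjusted p = 0.095). It was called with DESeq2 (adjusted p = 0.042) and in limma without double mutant replicate 1 (0.036) or replicate 2 (0.037). In all, 14 of the 32 members (43.8%) had groups that did not overlap, against 54.8% of all loci. Without either hrde-1 library fbxb-79 fell under the minimum and was not tested. The count was then 0 without replicate 1, against 5.67% of all loci, and 1 without replicate 2, against 7.41%, this being fbxb-14 at 1.00 (limma adjusted p = 0.046). It was 3 without double mutant replicate 1 or replicate 2, against 15.6% and 15.3% of all loci. With scaling to miRNA reads, whose share was lower in the hrde-1 strain, 24 of 34 members were called lower, as were 75.3% of all loci, and the median of all loci was -1.27 in place of -0.18.

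The double mutant over hrde-1 compares strains that differ at all 3 mutated genes, and here 8 members differed. fbxc-44, fbxc-45 and fbxc-47 were higher in the double mutant, and fbxb-79, fbxc-18, fbxb-22, fbxb-14 and fbxb-95 were lower. That is 25% of the 32 members tested, against 16.4% of all 6469 loci (7.02% higher and 9.38% lower), and 22 members (68.8%) had groups that did not overlap, against 43.6% of all loci. This contrast shares its hrde-1 libraries with the triple mutant over hrde-1 and its double mutant libraries with the triple over the double mutant, so its calls are no separate evidence for theirs. All 3 members called higher were F-box C genes, of 12 tested, and 4 of the 5 called lower were F-box B genes, of 20 tested. The families were not tested against each other. The reads of fbxc-47 cannot be told apart from those of an overlapping gene, as given below.

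fbxc-44 was at 146 and 175 RPM in the double mutant against the 24.8 and 29.8 of hrde-1, a log2 fold change of 2.51 ± 0.32 (SE, n = 2 each; limma adjusted p = 6.2e-05). The triple mutant stood between these strains. fbxc-45 had 51.0 and 66.9 RPM in the double mutant, 12.5 and 17.7 in the hrde-1 strain, and 23.1 and 19.2 in the triple mutant. Its log2 fold change over hrde-1 was 1.90 ± 0.32 (SE, n = 2 each; limma adjusted p = 7.5e-04). fbxc-47 had 37.0 and 49.6 RPM in the double mutant, 12.1 and 18.3 in the hrde-1 strain, and 23.3 and 19.7 in the triple mutant. All 3 genes thus had the same order of strains, without overlap. For fbxc-47 the log2 fold change over hrde-1 was 1.47 ± 0.33 (SE, n = 2 each; limma adjusted p = 0.0062), and the call was lost without hrde-1 replicate 1 (adjusted p = 0.102) and with scaling to miRNA reads (0.58, adjusted p = 0.131).

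fbxb-79 was lower in the double mutant than in the hrde-1 strain by a log2 fold change of -3.82 ± 0.42 (SE, n = 2 each; limma adjusted p = 1.5e-05). Here too it entered the fit through the hrde-1 libraries alone. With a minimum mean of 1 the limma adjusted p was 6.2e-07. Its level in the double mutant rested on 6 and 5 reads, against 159 and 158 in the hrde-1 strain and 37 and 15 in the triple mutant. fbxc-18 was at 75.1 and 87.7 RPM in the hrde-1 strain and 14.2 and 28.5 in the double mutant (log2 fold change -1.96 ± 0.37, SE, n = 2 each; limma adjusted p = 0.0017). fbxb-22 was at 35.0 and 39.2 RPM in the hrde-1 strain and 8.61 and 15.7 in the double mutant (log2 fold change -1.59 ± 0.36, SE, n = 2 each; limma adjusted p = 0.0058). In these 3 genes both double mutant libraries were the lowest of the 6.

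fbxb-14 was at 1619 and 2005 RPM in the double mutant, under both hrde-1 libraries, with a log2 fold change of -1.34 ± 0.30 (SE, n = 2 each; limma adjusted p = 0.0060). Its call was lost with no filter on low values (limma adjusted p = 0.0884). fbxb-95 was at 24.5 and 28.1 RPM in the hrde-1 strain, 19.2 and 16.9 in triple mutants, and 12.8 and 12.7 in the double mutant. The strains did not overlap, but the call of -0.99 ± 0.31 (SE, n = 2 each; limma adjusted p = 0.043) was lost under 10 of the 16 alternatives, among them the omission of any 1 of the 6 libraries. The number of members called was 5 without hrde-1 replicate 1 and 16 without double mutant replicate 2, against 11.3% and 17.1% of all loci. It was 24 of 34 with scaling to miRNA reads (2 higher, 22 lower), against 2.51% and 43.2% of all loci, with a median of -1.06 for all loci in place of -0.15.

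In some runs neighbouring members differed in level, unlike the near-empty run of fbxc-1 to fbxc-12; the pairs given were picked for this. fbxc-43 and fbxc-44 lie next to each other, and had means of 1147 and 80.2 RPM over the 6 libraries. Next to fbxb-97, fbxb-96 had 12 reads in all 6 libraries together against 17305. fbxb-101 had a mean of 3.67 RPM beside fbxb-100 with a mean of 266 RPM. fbxb-56 and fbxb-93, also neighbours, had means of 1.58 and 6.28 RPM, and the authors' deposited tables call both lower in each comparison with N2.

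In the WBcel235 annotation 14 members overlap another gene on the same strand and 11 one on the other strand, and how reads with several positions or on either strand were counted is not given in the sources used here. The gene that the reads of such members, and of near-identical family copies, came from is therefore uncertain. fbxb-14 overlaps W08F4.12 on the same strand, which held 218 to 533 reads per library. fbxc-47 overlaps the antisense RNA gene anr-18, which held 82 and 86 reads in the hrde-1 strain, 130 and 42 in triple mutants, and 203 and 228 in the double mutant. fbxc-47 itself held 83 and 89, 129 and 42, and 219 and 247 reads, so the levels of these genes were nearly equal in every library and cannot be told apart. fbxb-24 overlaps faah-4 on the other strand, with 17 to 81 reads per library there.

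The pairs most alike over the 6 libraries were fbxb-91 and fbxb-20 in F-box B (Pearson r = 0.989 of log2(RPM + 1) over 6 libraries) and fbxc-45 and fbxc-47 in F-box C (r = 0.990). These are descriptions: the points share library, depth and strain, and the pairs were picked as the highest of 20 and 12 members with a mean of at least 10 RPM.

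Like families gave other counts in the triple over the double mutant, with no test of the difference. Among 188 F-box A genes 38 were tested with limma, 4 higher and 9 lower, and among 84 BATH and MATH genes 31 were tested, 4 higher and 1 lower. Over N2 the F-box A genes were mostly lower too: for hrde-1 the authors' deposited table calls 3 higher and 27 lower of 89, with a median log2 fold change of -0.80. For the triple mutant the authors' deposited table calls 6 higher and 23 lower of 79, with a median of -0.56. Of 39 listed genes for the SCF ligase and single F-box proteins outside the families, 37 were present and 16 tested. limma called none of these 16, and none had an unadjusted p under 0.05. edgeR and DESeq2 also called 0 of them. Among them cul-1, the cullin of the SCF ligase, had a log2 fold change of 0.02 ± 0.37, and sel-10, an F-box gene with a known role in Notch turnover, -0.23 ± 0.32 (SE, n = 2 each). With a minimum mean of 1, limma called 1 of 27 listed genes lower, against 4.38% of all loci called. The authors' deposited table of this contrast also calls 1 of 27 lower, against 4.33% of all loci called. Over N2 the authors' deposited tables call 1 higher and 1 lower, of 30 for hrde-1 and of 29 for the triple mutant. Of all loci they call 15.9% and 18.8%.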

How the data were processed

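Small RNAs of whole worms were sequenced from 3 strains with 2 libraries each. The submitters' processing notes list cutadapt, Bowtie2, HTSeq, DESeq2 and the build ce10, and versions, strand and multi-mapping settings are not given in the sources used here. No coordinates or sequences are printed, since the reference used for classes, exon lengths and neighbours is WBcel235. The authors deposited 3 tables. Per the file headers the library values are fpm: the authors deposited a scaled signal for hrde-1 with N2 and for the triple with the meg-3 meg-4 double mutant, and RPM for the triple with N2. The authors' log2 fold changes and adjusted p-values stand in each deposited table. The 4 per-library N2 columns belong to no listed sample and were not used.

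In every library 100% of the values above 0 were whole multiples of the smallest, within 0.001 read, which gave the reads. Reads carry no molecular identifiers, so limits from a count of 0 cover counting error only. limma 3.58.1 (R 4.3.3) modelled log2(value + 1) with an intensity trend where a locus averaged 10 or more, with Benjamini-Hochberg adjustment over all loci and calls under 0.05. The triple over the double mutant used the deposited values of 4 libraries. The other contrasts used RPM of 6 libraries scaled together by TMM (edgeR 4.0.16), in 1 fit. A fold change on this scale understates the change of low genes. The limma step was also run on simulated counts with the same spread at all loci and no outlying library. That run cannot show how the calls depend on single libraries here. Alternatives changed the pseudocount (0.5, 5), the filter (mean of at least 1, none), the scaling (TMM, library totals, miRNA reads), the tool (edgeR, and DESeq2 1.42.0, on the recovered reads), the replicate block and the libraries left out.

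The text names the 10 members with the highest mean RPM, all members called by limma, and up to 10 called members per authors' table by size of change. Others are named for a run, an overlap or a changed call, after their values were seen. The members, lists (SCF, vitellogenin, muscle genes, written from memory) and tests were chosen with earlier results of these data known.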

Additional observations from a re-analysis of the deposited data

How the results depend on the processing

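With 2 libraries per strain, counts of called members moved with single libraries and with the scaling. Leaving out 1 library at a time gave 1 to 14 called members for the triple over the double mutant (6 with all libraries), 0 to 3 for the triple mutant over hrde-1 (1) and 5 to 16 for the double mutant over hrde-1 (8). A strain left with 1 library was assumed to vary like the others. For the triple over the double mutant, edgeR and DESeq2 each called 6 members, against 8.21% and 7.71% of all loci. Every other setting that kept all libraries gave 5 to 9, against 2.44% to 10.9% of all loci. For the triple mutant over hrde-1 the count was 2 with library totals, 24 with miRNA scaling and 2 with DESeq2, against 8.92%, 75.9% and 11.8% of all loci. For the double mutant over hrde-1 it was 24 with miRNA scaling, against 45.7% of all loci. It was 7 to 11 with the pseudocounts, filters, library totals, edgeR and DESeq2, against 4.93% to 16.8% of all loci. The sign of a called value changed in these cases: fbxb-37 in the triple over the double mutant at -0.89 without double mutant replicate 1 (called higher, at 0.91, without replicate 2), and fbxb-85 at -0.77 and fbxb-24 at -0.88 in the triple mutant over hrde-1 with miRNA scaling. The cause was not tested. At the stricter adjusted p under 0.01 the authors' deposited tables call 14 of 97, 20 of 86 and 5 of 66 members, in place of 21, 24 and 7. Of all loci they then call 815 higher and 709 lower of 13876, 847 and 917 of 12595, and 200 and 160 of 11871.

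Same-numbered libraries deviated together with correlations of -0.19 (hrde-1 and triple mutant), 0.56 (hrde-1 and double mutant) and -0.11 (triple mutant and double mutant). The main fits did not pair the samples by number, and whether same-numbered libraries belong together was not tested. With the replicate block the counts were 6, 2 and 13, against 7.22%, 12.8% and 19.3% of all loci. The crossed pairing and the joint fit of 6 libraries for the triple over the double mutant were added after the data were seen. With the crossed pairing the counts were 9, 3 and 12, against 10.9%, 13.8% and 20.8% of all loci. The joint fit gave 7 calls for the triple over the double mutant, against 7.91% of all loci. Of 160 members, 128 had a mean under 10 RPM and were not tested in the joint fit, and no absence of change follows for them.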
